A study of Mus musculus with 12 samples.

Results

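The colony-stimulating factors and their receptors were followed in mouse pancreatic tumours after vehicle or after treatment with FAKi, which inhibits FAK (focal adhesion kinase), a kinase that relays signals from integrins. The 9 genes are the ligands Csf1, Il34, Csf2 and Csf3 and the receptor genes Csf1r, Csf2ra, Csf2rb, Csf2rb2 and Csf3r. They were chosen by name: every probe on the array that is not a control and carries one of these gene names was taken, which gave 16 of 56605 probes. All 9 genes were among the 27354 genes tested.

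The mice were female C57BL/6 animals of 8 weeks bearing tumours of the kind labelled KP, placed orthotopically, that is, in the organ the tumour comes from; what KP stands for, and the cells implanted, are not given in the labels. The labels name 6 replicates from mice that received vehicle for 14 days and 6 from mice that received FAKi at 50 mg/kg by gavage over the same 14 days. Total RNA of tumour tissue was hybridised to 12 one-colour Agilent arrays, 1 per replicate, each called a tumour here. Whether each replicate was a separate animal is not stated, so p-values measure only the spread between these samples. Each value is a log2 signal minus the 75th percentile of its own array, so that a difference of 1 is a doubling, and the signal of one probe cannot be set against that of another.

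Colony-stimulating factors are secreted proteins that keep myeloid cells alive and make them divide and mature. Csf1 (M-CSF) and Il34 (interleukin-34) share the receptor tyrosine kinase Csf1r, on which most tissue macrophages depend. Csf2 (GM-CSF) binds the alpha subunit Csf2ra and signals through the common beta chain Csf2rb, with Csf2rb2 as a beta chain that mice use for interleukin-3. Csf3 (G-CSF) acts through Csf3r and drives the output of neutrophils. In pancreatic cancer this family is known for its part in filling the tumour with macrophages and neutrophils.

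No member of the family passed the test between FAKi and vehicle. By limma, 0 of 9 members had a Benjamini-Hochberg adjusted p under 0.05 (0.9995 for each), where 0% of all 27354 genes were called. Csf2 alone had an unadjusted p under 0.05, against 4.79% of all genes (1311). The median difference of the 9 members was −0.06, with 4 above 0 and 5 below, beside a median of 0.09 over all genes, 60.8% of which lay above 0. In bulk tissue, fewer cells of a type and less RNA per cell cannot be told apart.

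**Figure D1:**
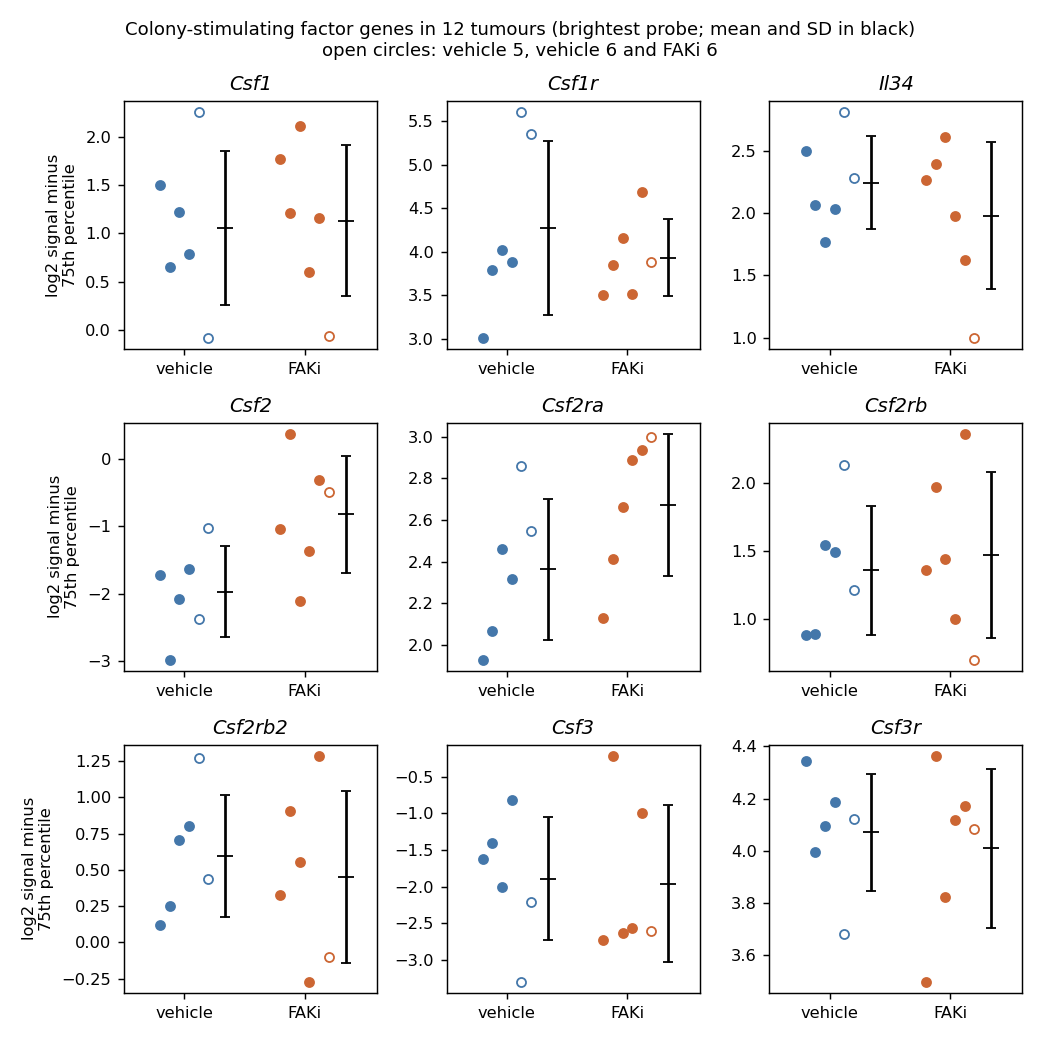
Level of each of the 9 genes in the 12 tumours by its brightest probe, as log2 signal minus the array's 75th percentile (each panel has its own vertical scale); circles are tumours, black bars the mean and SD of 6, and open circles vehicle 5, vehicle 6 and FAKi 6. The groups overlap for every gene, and Csf2 has 3 FAKi tumours above all 6 vehicle tumours.

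The arrays gave a signal well above background on 66.6% to 76.1% of spots, with 0 saturated spots. Vehicle 6 (66.6%) and vehicle 5 (67.2%) were lowest, and FAKi 6 was at 73.9%. The 75th percentile of vehicle 6 was 11.84 (log2), against 12.84 to 13.90 on the other arrays. All but 1 of the 16 probes were well above background on all 12 arrays; the exception, a Csf2rb probe, was so on 10. The tumours vehicle 5, vehicle 6 and FAKi 6 stood apart: over 4023 transcripts with probes at least 1000 bases apart, their median signal of the last probe minus the first, centred over the arrays, was 0.33 to 0.98, against −0.29 to 0.03 in the other 9 tumours. The difference of each of the 9 genes by its brightest probe is therefore given with and without these 3 tumours, a setting chosen after the data had been seen; values of marker and pathway genes are over all 12.

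Among the ligands of Csf1r, Csf1 was at −0.08 in its lowest vehicle tumour, at a median of 1.005 and at 2.26 in its highest. With FAKi it ran from −0.07 over a median of 1.19 to 2.11. The ranges covered each other almost wholly, with vehicle 6 and FAKi 6 lowest in their groups. The group means were 1.06 ± 0.80 (SD, n = 6) and 1.13 ± 0.79 (SD, n = 6), a difference of 0.08 (SE 0.42, 95% interval −0.84 to 0.99). Without the 3 tumours it was 0.33.

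This value comes from the brightest of 3 Csf1 probes, which lies at chr3:107544333-107544392 on the minus strand (mm9). The other pair, which overlap each other and begin 4217 bases upstream of it, is listed for another Csf1 transcript record and gave −0.59 (SE 0.42) and −0.58 (SE 0.46) for FAKi minus vehicle, or −0.32 and −0.09 without the 3 tumours. On the second of these upstream probes vehicle 5 stood at 0.64, while the other 11 tumours lay between −2.88 and −1.32. The sign for Csf1 thus differed between its probes, and none of the 3 differences passed the probe-level fit, in which 0 of 40460 probes did.

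Il34 ran from 1.77 over a median of 2.18 to 2.81 with vehicle and from 0.998 over a median of 2.12 to 2.61 with FAKi. The lowest tumour was FAKi 6 and the highest vehicle 5. The means were 2.25 ± 0.37 (SD, n = 6) and 1.98 ± 0.59 (SD, n = 6), which differ by −0.27 (SE 0.29, 95% interval −0.90 to 0.36). Without the 3 tumours the sign turned, at 0.08, and the second Il34 probe, 712 bases upstream, gave −0.15 with all tumours and 0.15 without them.

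Csf1r, their shared receptor, ran from 3.01 over a median of 3.95 to 5.61 with vehicle and from 3.51 over a median of 3.87 to 4.69 with FAKi. The highest values were those of vehicle 5 (5.61) and vehicle 6 (5.35), above all 6 FAKi tumours. The means were 4.28 ± 0.999 (SD, n = 6) and 3.93 ± 0.44 (SD, n = 6), a difference of −0.34 (SE 0.41, 95% interval −1.24 to 0.55). Without the 3 tumours it was 0.27.

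A second Csf1r probe lies 12064 bases upstream in the genome. It ran from −1.67 over a median of −0.98 to −0.76 with vehicle and from −1.66 over a median of −0.73 to −0.27 with FAKi. FAKi minus vehicle on it was 0.33 (SE 0.26), and 0.31 without the 3 tumours, so the 2 probes differ in sign over 12 tumours and share it over 9. Across tumours the 2 probes had r = −0.32 over 12 and 0.68 over 9. The downstream minus the upstream probe was 5.54 to 7.03 in vehicle 5, vehicle 6 and FAKi 6 and 4.04 to 5.11 in the other 9. The part of probe position in the Csf1r difference was not tested beyond these values.

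**Figure D2:**
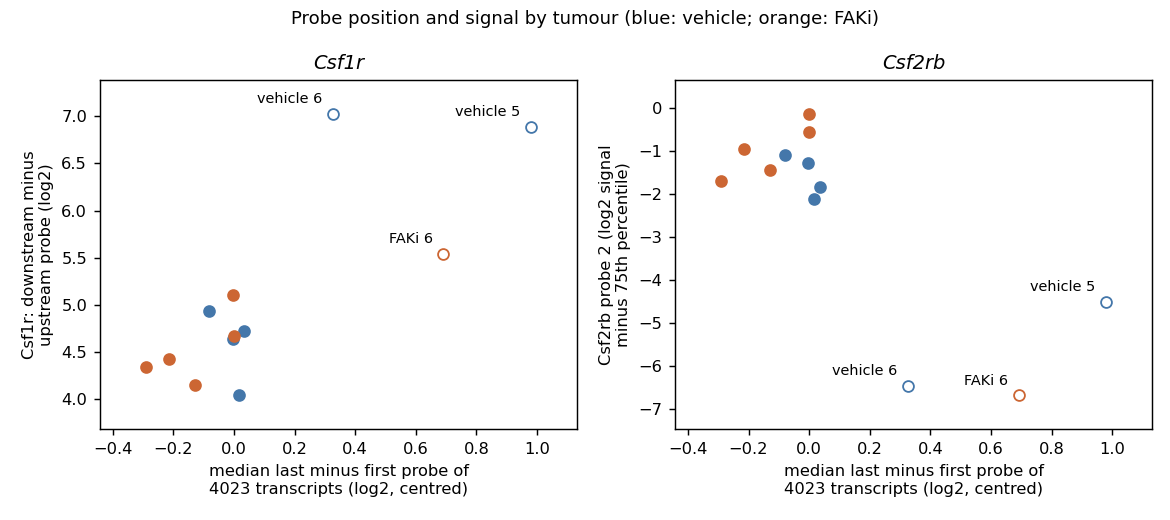
Left, signal of the downstream minus the upstream Csf1r probe (log2), and right, signal of the second Csf2rb probe (log2 signal minus the 75th percentile), each against the median last minus first probe of 4023 transcripts (log2), 1 circle per tumour (blue vehicle, orange FAKi). The 3 open circles, vehicle 5, vehicle 6 and FAKi 6, lie at 0.33 or above on the horizontal axis, with the 3 largest Csf1r gaps and the 3 lowest Csf2rb values.

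Csf2, the ligand of the second arm, had the largest difference of the family. With vehicle it was −2.98 at the lowest, −1.90 at the median and −1.03 at the highest, and with FAKi −2.11, −0.76 and 0.37. FAKi 2, FAKi 5 and FAKi 6 lay above every vehicle tumour. FAKi 1, FAKi 3 and FAKi 4 lay within the vehicle range, the top of which was vehicle 6, so the groups overlap. The means were −1.97 ± 0.67 (SD, n = 6) and −0.82 ± 0.87 (SD, n = 6), a difference of 1.15 (SE 0.42, 95% interval 0.25 to 2.05), or 2.21-fold (95% interval 1.19 to 4.13), and 5 of the 6 treated tumours exceeded the mean of the controls. The unadjusted limma p was 0.0162, rank 434 of 27354 genes, and the adjusted p was 0.9995. A two-sided exact permutation test, run over 924 arrangements, gave p = 0.0346 (adjusted over all genes, 0.962), where the smallest it can give is 0.0022. Over its alternatives the unadjusted p ran from 0.0032 to 0.0702 and the adjusted p from 0.237 to 1.

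Csf2 was 1.21 without the 3 tumours and kept its sign in all 26 alternatives, but some of these could not change its value. The exact permutation test, the replicate block, the other filters and the mean of probes all left it at 1.15. With slide as a fixed block the difference was 1.44 (limma, unadjusted p = 0.0702). The 2 slides that hold both groups gave 1.92 (vehicle 3 and 5 against FAKi 5) and 0.97 (vehicle 2 and 6 against FAKi 1).

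All of this rests on 1 probe. Its first 30 bases are printed to show which oligo that is, as the file gives them.
Csf2 probe, bases 1 to 30: tctgaaaacgctgactcagcttggacagcg
The array design places this probe of 60 bases at chr11:54060772-54060799 on the minus strand (mm9), a span of only 28 bases. Of 56209 probes with a position, 154 (0.274%) span 28 bases or fewer. What the probe matches elsewhere in the genome was not tested.

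Beside Csf2 stand the markers of cytotoxic lymphocytes, which can make GM-CSF. All 7 measured genes of the natural killer cell and granzyme list had differences above 0 (median 0.27, 0 of 7 passed), where 60.8% of all genes lay above 0. The list score is the mean over genes of the value minus each gene's own mean. It ranged from −0.86 to 0.28 with vehicle and from −0.46 to 1.07 with FAKi. Gzmb, granzyme B, named after its value was seen, was at 1.35 (SE 0.57) with 6 of 6 treated tumours over the mean of the controls. It had the largest difference of the list and was well above background on 5 of 6 vehicle arrays. Gzma, granzyme A, named likewise, had the smallest, at 0.16 (SE 0.66) with 2 of 6. The T cell list had 6 of 7 measured genes above 0, with a median of 0.07 beside 0.09 over all genes, and 0 passed. Its scores ran from −0.71 to 0.48 with vehicle and from −0.95 to 1.55 with FAKi. Across the 12 tumours Csf2 and the natural killer cell and granzyme score had r = 0.77 and rho = 0.77 (permutation p of 0.00345 and 0.00481, adjusted over 108 relations 0.0840 and 0.104). Within the groups r was 0.19 (vehicle) and 0.92 (FAKi), and without the 2 tumours farthest from the median score it was 0.49. The acinar and endothelial lists each had all measured genes on a single side of 0, and no list was tested as a set. All 6 measured acinar genes had differences above 0 (median 0.40, 0 passed), with scores from −0.80 to 0.19 with vehicle and from 0.06 to 0.59 with FAKi, and Csf2 had r = 0.59 and rho = 0.73 with this list (permutation p of 0.0463 and 0.00972, adjusted 0.278 and 0.150). All 5 endothelial genes had differences below 0 (median −0.34, 0 passed), with scores from −0.68 to 1.37 and from −0.76 to 0.15, and Csf2 had r = −0.59 and rho = −0.59 with it (permutation p of 0.0433 and 0.0457, adjusted 0.278 and 0.300). The part of these cell types in the Csf2 difference was not tested.

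Csf2ra, the subunit that gives the receptor its specificity for GM-CSF, ran from 1.93 over a median of 2.39 to 2.86 with vehicle and from 2.13 over a median of 2.78 to 2.997 with FAKi. The 3 highest tumours were FAKi 4, FAKi 5 and FAKi 6, but vehicle 5 stood above FAKi 1, FAKi 2 and FAKi 3. The means were 2.36 ± 0.34 (SD, n = 6) and 2.67 ± 0.34 (SD, n = 6), a difference of 0.31 (SE 0.23, 95% interval −0.19 to 0.81, unadjusted p = 0.204). It was 0.41 without the 3 tumours, and −0.18 within slide 4.

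Csf2rb, the common beta chain, ran from 0.88 over a median of 1.35 to 2.14 with vehicle and from 0.70 over a median of 1.40 to 2.36 with FAKi. The means were 1.36 ± 0.48 (SD, n = 6) and 1.47 ± 0.61 (SD, n = 6), which differ by 0.11 (SE 0.32, 95% interval −0.57 to 0.79), or by 0.43 without the 3 tumours. All 4 Csf2rb probes gave a difference above 0, from 0.11 to 0.97, and none passed. The fourth is listed for another transcript record. Across the tumours the brightest probe had r = 0.07 with the first, 0.39 with the second and −0.03 with the fourth. Without the 3 tumours these were 0.48, 0.97 and 0.32.

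The largest Csf2rb difference, 0.97 (SE 1.15), came from the second probe, which the array lists for transcripts of both Csf2rb and Csf2rb2. It read −4.51 in vehicle 5, −6.45 in vehicle 6 and −6.68 in FAKi 6, and between −2.12 and −0.13 in the other 9 tumours. In vehicle 6 and FAKi 6 it was not well above background. Without vehicle 5, vehicle 6 and FAKi 6 it gave 0.63. The first probe lies over a splice junction, with 263 bases of genome for its 60 bases, and gave 0.32 (SE 0.26), or 0.24 without the 3.

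Csf2rb2, the second beta chain, ran from 0.12 over a median of 0.57 to 1.27 with vehicle and from −0.27 over a median of 0.44 to 1.29 with FAKi. The highest tumours were FAKi 5 and vehicle 5 and the lowest FAKi 4 and FAKi 6. The means were 0.60 ± 0.42 (SD, n = 6) and 0.45 ± 0.59 (SD, n = 6), a difference of −0.15 (SE 0.30, 95% interval −0.79 to 0.50). Without the 3 tumours the sign turned, at 0.09.

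The brightest probes of the 2 beta chain genes, at chr15:78181168-78181227 (plus strand) and chr15:78113126-78113185 (minus strand, mm9), are alike in sequence, and their most similar stretches are shown because the relation between these genes rests on them. Of 30 bases 27 match, against 17 at most for any other pair of probes from different members, and capitals mark the bases that differ.
Csf2rb probe, bases 30 to 59: ggcagatcaaAtgtCccttggtctCtgttc
Csf2rb2 probe, bases 12 to 41: ggcagatcaaGtgtTccttggtctAtgttc
Whether either probe also takes up transcripts of the other gene was not tested.

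Csf3, the neutrophil growth factor, ran from −3.30 over a median of −1.81 to −0.82 with vehicle and from −2.73 over a median of −2.58 to −0.21 with FAKi. Among the FAKi tumours, FAKi 2 (−0.21) and FAKi 5 (−0.998) stood high and the other 4 lay between −2.73 and −2.56. The means were −1.89 ± 0.84 (SD, n = 6) and −1.96 ± 1.08 (SD, n = 6), a difference of −0.06 (SE 0.51, 95% interval −1.15 to 1.02). Without the 3 tumours it was −0.37.

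Csf3r, its receptor on neutrophils, varied least of the family, with an SD of 0.26 over the 12 tumours on its brightest probe. It ran from 3.68 over a median of 4.11 to 4.35 with vehicle and from 3.50 over a median of 4.10 to 4.36 with FAKi, with FAKi 1 and vehicle 5 lowest. The means were 4.07 ± 0.22 (SD, n = 6) and 4.01 ± 0.31 (SD, n = 6), a difference of −0.06 (SE 0.21, 95% interval −0.51 to 0.38). Without the 3 tumours it was −0.16. Beside these genes, 9 of 11 measured neutrophil markers had differences above 0 (median 0.37, 0 passed), where 60.8% of all genes lay above 0. The list scores ran from −1.03 to 0.87 with vehicle and from −0.49 to 1.20 with FAKi.

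The only Csf3r probe, at chr4:125721478-125721537 on the plus strand (mm9), carries a sequence found in other genes, and the stretch is shown for that reason. A run of 16 bases of it, on either strand, occurred in 11 probes of other genes and in 22 of 32851 RefSeq promoters (GRCm38.p6), against at most 2 probes of other genes and 3 promoters for the other 15 probes of the family. The shared runs cover bases 22 to 60 of the probe, and capitals mark the run found most often (7 probes and 7 promoters).
Csf3r probe, bases 31 to 60: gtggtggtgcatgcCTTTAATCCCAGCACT
How much of the signal came from transcripts other than Csf3r was not tested.

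**Figure D3:**
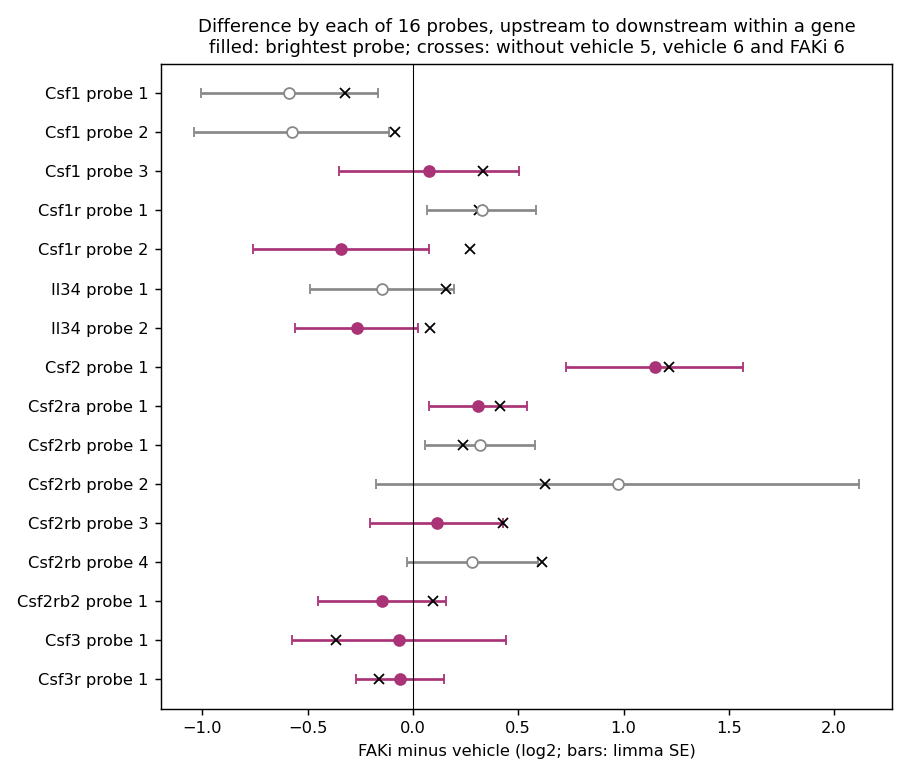
FAKi minus vehicle (log2) for each of the 16 probes, ordered from upstream to downstream within a gene, with limma SEs; filled circles are the brightest probe of a gene, crosses the difference without vehicle 5, vehicle 6 and FAKi 6. Csf2 lies farthest to the right at 1.15, Csf1 has probes on both sides of 0, and the crosses of Csf1r, Il34 and Csf2rb2 lie above 0.

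How ligands, receptors and subunits moved together from tumour to tumour was read over 9 pairs, with 100000 permutations and adjustment over the pairs. Csf2rb and Csf2rb2 had r = 0.94 and rho = 0.94 (permutation p of 4.0e-05 and 6.0e-05, adjusted 3.6e-04 and 5.4e-04), and 0.88 without the 2 tumours farthest in Csf2rb. Within the groups r was 0.99 for vehicle and 0.96 for FAKi (exact permutation p of 0.00417 and 0.00694, n = 6 each). With the mean of a gene's probes it was 0.43 (adjusted p = 0.366). The likeness of the probes stands beside this relation, and its part was not tested.

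Csf3 and its receptor Csf3r had r = 0.72 and rho = 0.83 (permutation p of 0.00756 and 0.00126, adjusted 0.0340 and 0.00567), and 0.64 without the 2 tumours farthest in Csf3. Within the groups r was 0.73 and 0.72 (exact permutation p of 0.111 and 0.0681, n = 6 each). It was 0.49 after quantile normalisation (adjusted p = 0.302) and 0.51 in the authors' deposited table (adjusted p = 0.257). The sequence that the only Csf3r probe shares with other genes stands beside this and every other Csf3r relation, and its part was not tested. Csf1 and Il34, both ligands of Csf1r, had r = 0.67 and rho = 0.62 (permutation p of 0.0154 and 0.0364, adjusted 0.0463 and 0.109), and r = 0.54 with vehicle and 0.86 with FAKi (exact permutation p of 0.261 and 0.0278, n = 6 each). Without FAKi 6 it was 0.53 (adjusted p = 0.206), and 0.73 without the 2 tumours farthest in Csf1. Without vehicle 5, vehicle 6 and FAKi 6 (n = 9), permutation kept 1 of the 3 relations, that of the beta chains (r = 0.91, adjusted p = 0.00540); those of Csf3 with Csf3r and of Csf1 with Il34 were 0.72 (adjusted p = 0.0854) and 0.60 (adjusted p = 0.201).

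The other 6 pairs did not pass. For the receptor Csf1r, r was 0.04 with Csf1 (adjusted p = 0.914) and 0.20 with Il34 (adjusted p = 0.608). Csf2 had r = 0.30 with Csf2ra (adjusted p = 0.503), 0.26 with Csf2rb (adjusted p = 0.532) and 0.38 with Csf3 (adjusted p = 0.491). Csf2ra and Csf2rb had r = 0.30 (adjusted p = 0.503), made of 0.89 with vehicle and −0.18 with FAKi (exact permutation p of 0.0181 and 0.740, n = 6 each), a difference between groups that was not tested.

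**Figure D4:**
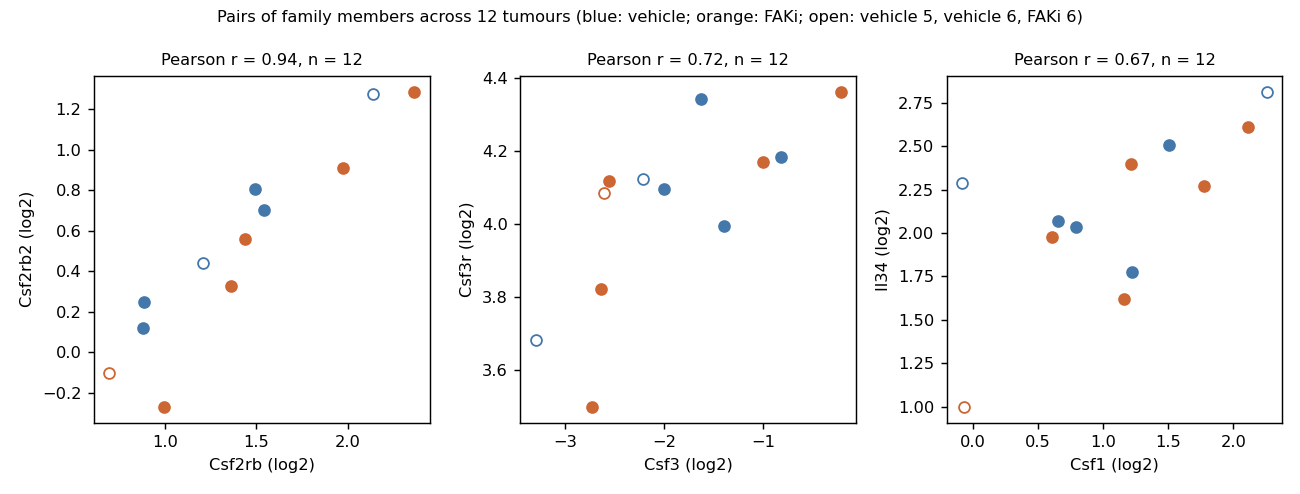
Log2 values (signal minus the 75th percentile) of 3 pairs of genes, 1 circle per tumour (blue vehicle, orange FAKi, open circles vehicle 5, vehicle 6 and FAKi 6). Csf2rb and Csf2rb2 lie along 1 line (r = 0.94), Csf3 and Csf3r scatter more (r = 0.72), and for Csf1 and Il34 (r = 0.67) vehicle 6 and FAKi 6 lie at the left edge.

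Against 12 cell type marker lists, 108 relations of members with list scores were computed, and 3 passed by Pearson's r. By its downstream probe, Csf1r went with the fibroblast list (r = 0.87, permutation p = 1.5e-04, adjusted 0.0162). Both beta chains went with the macrophage list (Csf2rb r = 0.84, adjusted p = 0.0470, and Csf2rb2 r = 0.82, adjusted p = 0.0479). By Spearman's rho 0 of the 108 passed, with 0.78, 0.80 and 0.81 for these relations (adjusted p = 0.104 for each). Without the 2 tumours farthest from the median list score, r was 0.78, 0.74 and 0.71. Without vehicle 5, vehicle 6 and FAKi 6, 0 passed, and r was 0.79, 0.75 and 0.71 (adjusted p of 0.191, 0.191 and 0.213).

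Csf1r itself marks macrophages, yet its r with the macrophage list was 0.70 (rho 0.76, adjusted p of 0.166 and 0.106), and 0.93 over the 9 tumours without those 3 (adjusted p = 0.127). Of the 12 macrophage markers 6 had differences above 0 and 6 below (median −0.02), with list scores from −0.62 to 0.73 with vehicle and from −0.69 to 0.62 with FAKi. With the neutrophil list Csf3r had r = 0.43 (rho 0.52, adjusted p of 0.404 and 0.335) and Csf3 had r = 0.64 (rho 0.68, adjusted p of 0.278 and 0.205). Csf1 had r = −0.77 with the B cell list (rho −0.82, adjusted p of 0.0840 and 0.104), and −0.51 over the 9 tumours.

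**Figure D5:**
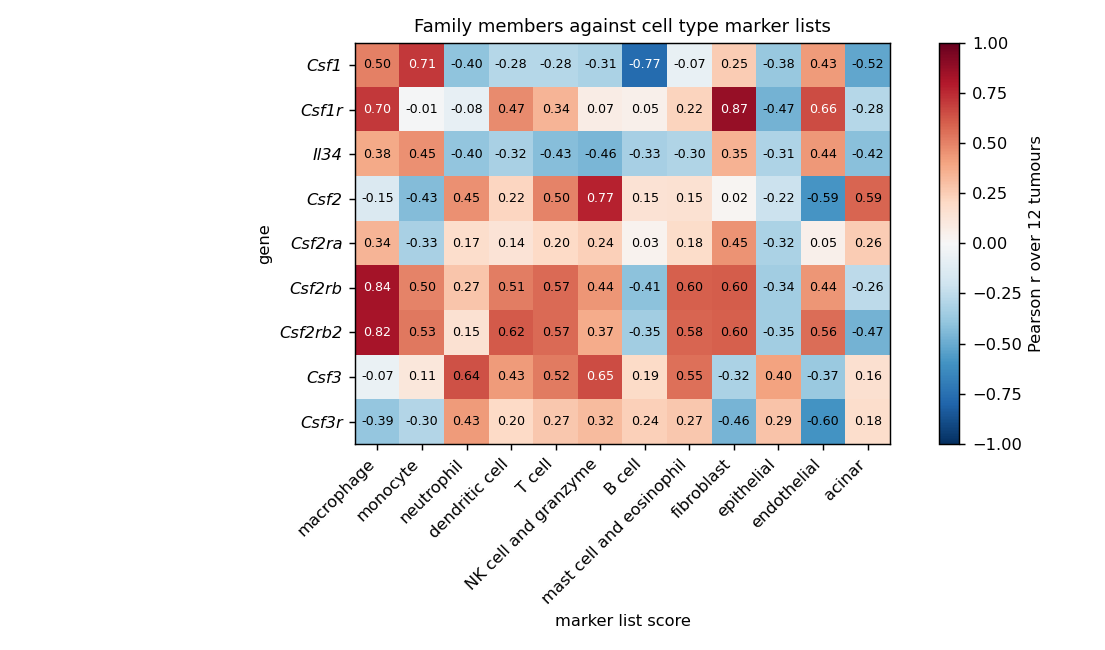
Pearson r over 12 tumours between each of the 9 genes (rows) and the score of each of 12 marker lists (columns), from −1 in blue to 1 in red. The highest values are those of Csf1r with fibroblast (0.87) and of Csf2rb and Csf2rb2 with macrophage (0.84 and 0.82).

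The genes whose values were most like each member's over the 12 tumours are given by Pearson's r as a description. Csf1 was nearest to Ccn4 (0.94), Fyn (0.92) and Mical2 (0.92). Csf1r, by its downstream probe, was nearest to Acvrl1 (0.98), a receptor of vessel endothelium, then Slc46a3 (0.96) and Ifi27 (0.95). The part of probe position in this likeness was not tested. Il34 had no gene above 0.90 (Lmo1 0.87, Loxl3 0.84, Tceal1 0.84). Csf2ra was nearest to Snhg5 (0.96), Get1 (0.94) and Bloc1s1 (0.93).

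Csf2 was nearest to Abcb11 (0.91), the bile salt pump, to Acod1 (0.86), which makes itaconate in activated macrophages, and to Rbm38 (0.84). Csf2rb was nearest to the leukocyte genes Pik3cd (0.96) and Lcp1 (0.96) and to Lrmp (0.95), and Csf2rb2 to Lcp1 (0.95), Csf2rb (0.94) and Anpep (0.94). Csf3 was nearest to Duoxa2 (0.91), a maturation factor of an epithelial oxidase, to Il1a (0.89), the inflammatory cytokine interleukin-1 alpha, and to Prl2c3 (0.86). Csf3r was nearest to L1td1 (0.88), Bfar (0.88) and Ap5z1 (0.85). Predicted genes and unnamed transcripts were left out here; they made up 13 of the 20 genes most like Csf3r, 14 of those like Csf3 and 13 of those like Csf2, but 0 to 3 for the other members, where they are 37.9% of all genes tested.

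Of the pathway around the family, 50 of 53 listed genes were measured, 0 passed, and 2 had an unadjusted p under 0.05, where 4.79% of all genes did. Il3 and Il5, the other ligands of the common beta chain, were well above background on at most 1 of 12 arrays. Their receptors Il3ra and Il5ra differed by 0.11 (SE 0.25) and −0.03 (SE 0.78). Of 6 kinases and ligands of the class that Csf1r belongs to, 2 were above 0, with Flt3 at −0.57 (SE 0.30) and Kit at −0.37 (SE 0.30). Of the other proteins known to bind interleukin-34, 1 of 3 was above 0: the syndecan Sdc1 was at 0.24 (SE 0.21) and the myeloid receptor Trem2 at −0.51 (SE 0.42).

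Of 16 genes that carry the signal from these receptors, 6 lay above 0 and 10 below, with a median of −0.20. The adaptor Gab2 was at −0.68 (SE 0.29, unadjusted p = 0.0385), with 5 of 6 treated tumours under the mean of the controls. The kinase Jak2, which cytokine receptors use, was at −0.46 (SE 0.28) and below the vehicle mean in 6 of 6. Of 8 inhibitors of the signal 4 lay above 0, with the phosphatase Inpp5d at −0.58 (SE 0.34) and Socs1 at 0.44 (SE 0.38).

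Of 10 transcription factors of myeloid cells 5 lay above 0. Klf4 was at 0.67 (SE 0.26, unadjusted p = 0.0220) with 6 of 6 treated tumours over the mean of the controls. Of the cytokines known to induce colony-stimulating factors 3 of 5 measured genes lay above 0, with Il6 at 0.53 (SE 0.42) and Il1b at 0.15 (SE 0.46); Il17a was well above background on 2 arrays.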

How the data were processed

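The intensity values of each array were deposited by the authors as Agilent Feature Extraction output (version 11.5.1.1, per the file headers), background-subtracted, with probe positions on mm9. The log2 values of 38569 probes in a second table were also deposited by the authors; the sources used here do not give their normalisation, and limma is named in the submitters' processing notes. Here, log2 processed red signal minus the array's 75th percentile was averaged over spots of a probe. Probes well above background on at least 6 of 12 arrays were kept (40460), and the brightest represented a gene. FAKi and vehicle were compared with limma 3.58.1 in R 4.3.3, with Benjamini-Hochberg adjustment at 0.05 and no covariate; the procedure was tested on simulated data. Correlations and their permutation tests used NumPy 2.4.6, with the ranks for rho from SciPy 1.17.1. The number of arrays limits the precision.

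The arrays lay on 5 slides. Slide 2 held only vehicle 1 and vehicle 4, slide 3 only FAKi 2, FAKi 3 and FAKi 4, and slide 5 only FAKi 6. For these arrays treatment and slide cannot be told apart. Alternatives were quantile and median normalisation, normexp (offset 50), the deposited table, other filters, the mean of probes, slide and replicate blocks, and leaving out arrays. Named were the 9 members, the 2 genes of smallest p in each pathway list and the 3 genes most like each member. A gene this rule took is not reported here, and a marker gene outside it is named as such. Members and lists were chosen with earlier results of these data known. Exon and UTR annotation was not used here.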

Additional observations from a re-analysis of the deposited data

Results flagged for a closer look

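In 2 of 32 groups of 6 values (the 16 probes in each treatment group), 1 tumour lay far from the rest by Dixon's gap ratio, the gap to the nearest value over the range (above the 95% critical value for 6). Chance gives about 1 in 20 such groups. On the Csf2rb splice junction probe, vehicle 5 was lowest (ratio 0.693). On the Csf2rb probe also listed for Csf2rb2, FAKi 6 was lowest (ratio 0.760). Both tumours are among the 3 whose upstream probes read low against the downstream ones.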

How the results depend on the processing

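Over all genes 0 passed, except 1 with normexp and 0 to 3 when 1 array was left out (3 without FAKi 1). Genes at an unadjusted p under 0.05 numbered 1311, but 491 with slide as a fixed block, 762 to 3807 with 1 array left out (872 without FAKi 2, 762 without FAKi 4, 3807 without vehicle 6) and 4858 without vehicle 5, vehicle 6 and FAKi 6. The members passing stayed at 0 in each alternative run. The differences turned sign as follows. The mean of probes gave −0.36 for Csf1, and slide as a fixed block gave 0.14 for Csf2rb2 and 0.36 for Csf3. Leaving out vehicle 5, vehicle 6 and FAKi 6 gave 0.27 for Csf1r, 0.0799 for Il34 and 0.0928 for Csf2rb2. Slide 1 alone gave −0.58 for Csf1, 0.30 for Csf2rb2, 1.65 for Csf3 and 0.28 for Csf3r. Slide 4 alone gave 0.0922 for Il34 and −0.18 for Csf2ra. Single probes gave −0.59 and −0.58 for Csf1 and 0.33 for Csf1r. With 1 array left out the range was −0.15 to 0.32 for Csf1, −0.41 to 0.15 for Csf3, −0.14 to 0.0407 for Csf3r and −0.0655 to 0.27 for Csf2rb. The cause was not tested. Il3, Il5 and Il17a, dim on nearly all arrays, could not be tested.

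Of 9 pairs 3 passed; 1 did after quantile normalisation, in the authors' deposited table, with slide means subtracted and without the 3 tumours, 0 with the mean of probes, and 1 to 3 with 1 array left out (1 without vehicle 4, vehicle 5, FAKi 2 or FAKi 3). Csf1 with Csf1r ran from −0.39 to 0.39 and Il34 with Csf1r from −0.12 to 0.36 with 1 array left out. Csf1 with Csf1r was −0.15 with slide means subtracted, Il34 with Csf1r −0.52 without the 3 tumours, and Csf2ra with Csf2rb −0.10 with the mean of probes. Relations to marker lists fell from 3 to 0 without the 3 tumours.

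The groups share replicate numbers. Same-numbered arrays had correlations of their deviations of −0.12 to 0.485, over 0.1 for 4 of 6 numbers, and 2 of 6 matched their own number best; as not every pair was over 0.1, the numbers were not taken as pairs. With the replicate block 0 genes passed, 1667 had an unadjusted p under 0.05, and Csf2 was 1.15 (limma, unadjusted p = 0.0294). Subtracting the means of each replicate number (a replicate block) before the correlation, 5 pairs passed: the 3 above, Il34 with Csf1r (r = 0.83, adjusted permutation p = 0.00436) and Csf2 with Csf2rb (r = 0.71, adjusted permutation p = 0.0206). Csf2ra with Csf2rb was −0.0370. Each number holds a vehicle and a FAKi array, so the values left mirror each other within a number. The permutation took them as independent, which makes these p-values too small, and no relation is read from this setting.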
